A study of Homo sapiens with 79 samples.

Results

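Antisense long noncoding RNAs (lncRNAs) whose gene symbol ends in AS and a digit after a hyphen were followed across 24 formaldehyde RNA immunoprecipitations (fRIPs) and input RNA of human K562 cells. A gene was taken when its symbol had that ending, did not begin with HOX, and its mean over the 9 input libraries was at least 1 FPKM (fragments scaled to transcript length in kilobases and to the mapped fragments of the library). Of the 48453 genes listed, 786 had such a symbol, and 247 reached that level. The input values therefore chose these genes, and are given below as a description. Of the 247, 245 had a row for the sense gene named before the hyphen.

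In fRIP the cells are lightly cross-linked with formaldehyde and sonicated, 1 protein is pulled down with an antibody, and the RNA that comes with it is sequenced after removal of ribosomal RNA. K562 is an established human erythroleukemia line, grown here without any treatment, and all libraries share this line and the cross-linking. The 24 proteins comprised 18 chromatin-associated proteins (CAPs), namely DNMT1, the Polycomb proteins EZH2 and SUZ12, CHD4, HDAC1 and LSD1 of repressive complexes, PHF8, RBBP5 and WDR5 around active promoters, CBX3 and its phosphorylated form (phospho-CBX3, recovered with an antibody of its own), the acetyltransferases CBP and PCAF, the nuclear pore protein NUP98, the remodellers CHD1 and CHD7, CTCF and STAG2, and 6 RNA binding proteins (RBPs), namely ADAR, HNRNPH1, HNRNPU, HUR, IMP1 and PABP. EZH2 and STAG2 had 2 libraries each and every other protein had 3, beside 9 inputs in 3 sets, which gave 79 libraries. Each protein was represented by a single antibody in a single cell line, and STAG2, a cohesin subunit that recovered little RNA, was included as a low-RNA control.

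Fragment totals inferred from the steps between low FPKM values ran from 1.95 to 2.20 M (M, 1e6 fragments) in ADAR and from 33.0 to 58.9 M in DNMT1, and from 11.7 to 29.6 M in the inputs. All 9 K562 markers, among them GATA1 and the fetal globins, were present in input at means of 8.83 to 866 FPKM. Of 6 markers of other cell types 4 were below 1 FPKM, and EPCAM, an epithelial marker, reached 36.2 FPKM. All 247 antisense lncRNAs passed the filter on low values, so every count below is out of 247.

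Antisense lncRNAs are transcribed from the strand opposite a protein-coding gene, either across its exons, from within an intron, or from a shared promoter in the other direction. Some act on the neighbouring gene in the nucleus, others are spliced, exported and work in the cytoplasm, and a few are mainly hosts of small nucleolar RNAs. The RBPs of the panel meet RNA at different steps: ADAR deaminates adenosines in double-stranded RNA, HNRNPH1 binds runs of G, HNRNPU is a nuclear scaffold protein, HUR binds AU-rich RNA, and IMP1 and PABP accompany mature transcripts in the cytoplasm.

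Stretches of 5 antisense lncRNAs with an enrichment described further on are shown, read from GRCh37 (hg19) within their exons. The first 3 have runs of GGG in capitals. They are the HNRNPH1-enriched UNC5B-AS1 (chr10:72977250-72977369, minus strand) and PRR7-AS1 (chr5:176870287-176870406, minus strand), and BAIAP2-AS1 (chr17:79006324-79006443, minus strand), described below in EZH2 and WDR5. The last 2 were the RBBP5-enriched GRM7-AS3 (chr3:6673487-6673606, minus strand) and BIRC6-AS1 (chr2:32604332-32604451, minus strand), with runs of TTTTT in capitals.
UNC5B-AS1: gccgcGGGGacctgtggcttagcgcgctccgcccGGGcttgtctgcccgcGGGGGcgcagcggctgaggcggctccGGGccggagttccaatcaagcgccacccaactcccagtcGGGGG
PRR7-AS1: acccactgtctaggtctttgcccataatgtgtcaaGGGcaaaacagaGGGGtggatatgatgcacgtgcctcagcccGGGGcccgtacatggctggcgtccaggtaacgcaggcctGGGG
BAIAP2-AS1: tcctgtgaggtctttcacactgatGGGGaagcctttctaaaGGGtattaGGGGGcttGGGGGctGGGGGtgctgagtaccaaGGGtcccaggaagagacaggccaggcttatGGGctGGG
GRM7-AS3: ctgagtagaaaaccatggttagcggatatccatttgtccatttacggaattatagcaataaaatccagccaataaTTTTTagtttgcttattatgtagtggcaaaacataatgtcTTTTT
BIRC6-AS1: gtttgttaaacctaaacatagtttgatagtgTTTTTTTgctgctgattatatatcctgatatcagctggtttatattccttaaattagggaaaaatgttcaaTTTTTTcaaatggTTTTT

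Each stretch was the window of at most 120 bases of the main transcript with the most such words, outside annotated UTRs of other genes, so it is the extreme of its RNA and not its average. Counting overlapping GGG on the transcript strand, the windows held 10 in UNC5B-AS1, 7 in PRR7-AS1 and 15 in BAIAP2-AS1, and 1.83%, 6.76% and 0.18% of 2783 consecutive 120-base windows, laid end to end over the main transcripts of all these lncRNAs, held as many. Counting overlapping TTTTT, the windows held 2 in GRM7-AS3 and 6 in BIRC6-AS1, reached by 8.95% and 1.37% of the windows. Both words are common over the whole main transcript. GGG was present in 97.9% of the 239 antisense lncRNAs whose transcript could be read and in 98.8% of 2280 other lncRNAs, and TTTTT in 66.9% and 65.5%. TTTTT per kilobase was hardly related to the RBBP5 ratio to input over the 239, with a Spearman coefficient of 0.072 averaged over the libraries (0.00607 to 0.121).

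Input levels were low for most of the 247 genes. The median of the input means was 3.56 FPKM, with quartiles of 1.69 and 8.38 FPKM, and 71 genes lay between 1 and 2 FPKM. Above 10 FPKM lay 54 genes and above 50 FPKM 9. In these bulk lysates, fewer cells that carry an RNA and fewer copies per cell cannot be told apart.

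By far the most abundant was C17orf76-AS1 (chr17:16342081-16383563, plus strand), listed as SNHG29 in the annotation used here and a host of small nucleolar RNAs, whose 9 input libraries lay between 599.6 and 848 FPKM around a median of 690 FPKM. PSMD5-AS1 (chr9:123587106-123616663, plus strand) followed, from 81.5 to 180 FPKM with a median of 159 FPKM. It starts 124 bases from the PSMD5 promoter in the other direction and is now classed as the transcribed unitary pseudogene CUTALP. The mean inputs of the next genes were 70.5 FPKM for SETD5-AS1, 69.2 FPKM for OIP5-AS1, 59.4 FPKM for DNAJC9-AS1, 57.2 FPKM for THAP9-AS1 and 56.5 FPKM for EPB41L4A-AS1. OIP5-AS1, known as cyrano, is a conserved RNA that binds microRNAs and HUR, and EPB41L4A-AS1 hosts a small nucleolar RNA.

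The rule drew its line through a continuum. Just inside it were MCCC1-AS1 (1.034 FPKM), PRRT3-AS1 (1.01 FPKM) and FAM83H-AS1 (1.01 FPKM), and just outside it UGDH-AS1 (0.983 FPKM), ARMCX3-AS1 (0.976 FPKM) and GRTP1-AS1 (0.972 FPKM). Of the 539 candidates below the line, 170 were listed at 0 in every input library.

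The name antisense lncRNA held for most but not all of them. In a later annotation of hg19 that contained 240 of the 247 genes, 229 were lncRNAs, 5 were protein-coding, 4 were transcribed unitary pseudogenes and 1 was a transcribed unprocessed pseudogene. The protein-coding ones included TOPORS-AS1 (now SMIM27) and NCBP2-AS2, both of which recur below. By position, each RNA was placed in the first class that it met. Exonic bases were shared with the sense gene on the other strand by 118 (exon overlap). Of the rest, 48 lay at least partly opposite its introns (intronic), 44 outside it started within 1 kb of its start in the divergent direction, and 26 lay apart from it. The sources used here do not state that counting used strand, so where exons overlap, reads of the antisense RNA and of the other gene cannot be told apart. At least 5% of the exonic bases lay opposite exons of another gene in 120 genes and at least 50% in 38, and 117 had under 5% over any other gene. The enriched shares of these 117, by the calls defined further on, were 44.4% in ADAR, 37.6% in HNRNPH1 and 23.9% in DNMT1, against 36.8%, 36.8% and 23.1% over all 247. The share was higher in HNRNPU (31.6% against 22.3%) and CHD4 (16.2% against 10.1%) and lower in SUZ12 (7.69% against 17.4%), CBP (3.42% against 6.88%), IMP1 (1.71% against 3.64%) and phospho-CBX3 (0 against 1.62%). Depleted shares were more than 1.5 times as high among the 117 in NUP98 (15.4% against 10.1%), DNMT1 (9.4% against 6.07%), ADAR (5.13% against 3.24%), phospho-CBX3 (5.13% against 2.83%), CBP (4.27% against 2.43%) and CHD1 (2.56% against 1.62%). The main transcript had 2 exons in 117 genes, a median length of 904 bases and a median GC content of 48.3%, beside 679.5 bases and 46.4% for 2280 other lncRNAs.

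Each fRIP was compared with input in 1 limma fit of log2(FPKM + 1) over 25442 genes and all 79 libraries. An RNA was called enriched or depleted when its Benjamini-Hochberg adjusted p was under 0.05 and its log2 fold change was beyond 1 in size, and the share of all genes called is given beside each count as the background. Fold changes are on the log2(FPKM + 1) scale, which understates those of low genes, and FPKM give the share of each library's RNA, not the amount bound to a protein. At least 1 fRIP enriched 230 of the 247 antisense lncRNAs (93.1% beside 75.9 of all genes tested and 87.0% of the 16830 genes of at least 1 FPKM in input), and at least 1 depleted 113 (45.7% beside 34.8 and 52.6%). For 109 both occurred (44.1%, against 47.3% of genes of that level), and 13 were called nowhere (5.26% against 7.72%). Most were enriched in few fRIPs, with 43 genes in 1, 69 in 2, 56 in 3 and 35 in 4, and no gene in more than 7.

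**Figure D1:**
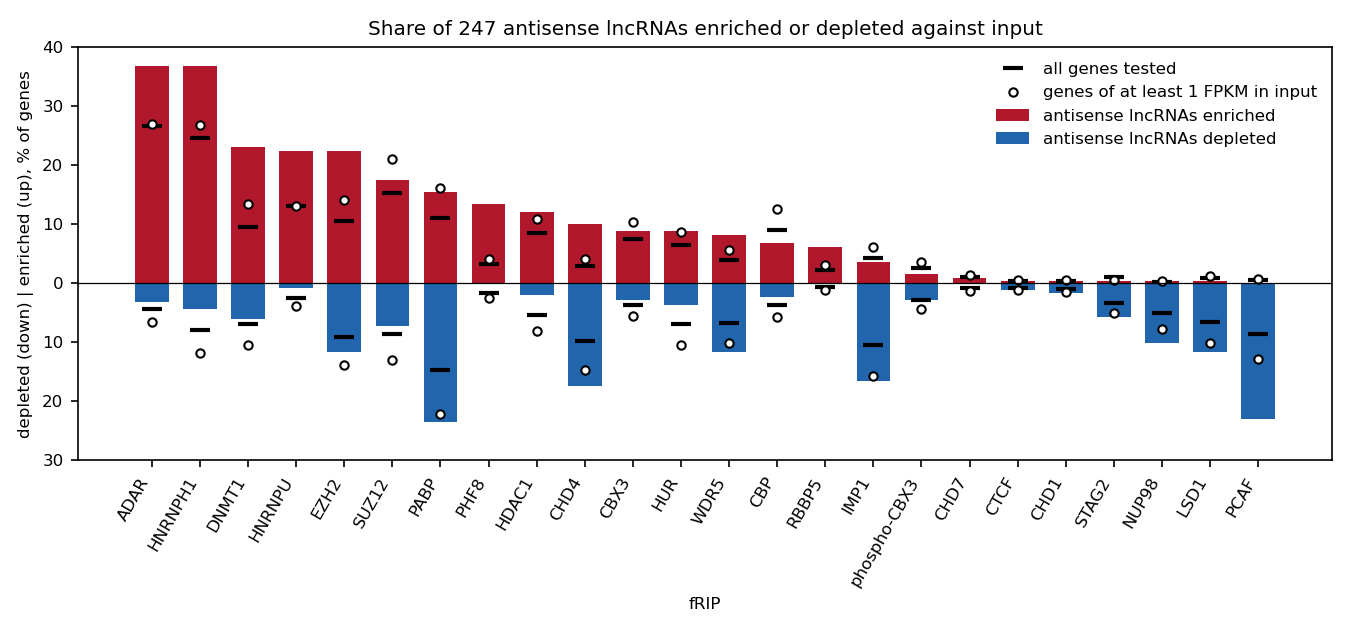
Percentage of the 247 antisense lncRNAs called enriched (bars upward from 0) and depleted (bars downward) in each fRIP against input, with the percentage of all 25442 genes tested as black dashes and that of the 16830 genes of at least 1 FPKM in input as open circles. ADAR and HNRNPH1 enriched 36.8% each, and PABP (23.5%) and PCAF (23.1%) had the longest downward bars.

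A gene below 1 FPKM in input cannot fall by more than 1 on this scale, so the background of all genes tested understates depletion for genes of the level of these lncRNAs. Over the 16830 genes of at least 1 FPKM in input the depleted share was 22.2% in PABP, 15.8% in IMP1, 14.8% in CHD4, 13.8% in EZH2, 12.9% in PCAF, 10.1% in LSD1 and WDR5 and 7.73% in NUP98. Their enriched share was 27.0% in ADAR, 26.8% in HNRNPH1, 21.1% in SUZ12, 16.1% in PABP, 14.1% in EZH2, 13.4% in DNMT1, 13.1% in HNRNPU, 12.5% in CBP, 10.8% in HDAC1, 10.4% in CBX3 and 8.62% in HUR. For WDR5, PHF8, CHD4 and RBBP5 it was 5.62%, 4.11%, 4.1% and 3.03%.

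ADAR and HNRNPH1, both RBPs, enriched the largest number. In ADAR 91 antisense lncRNAs were enriched, 36.8% beside a background of 26.6, and 8 were depleted, 3.24% beside 4.31 (backgrounds here and in what follows are the percentage of all genes tested). In HNRNPH1 91 were enriched, 36.8% beside 24.5, and 11 depleted, 4.45% beside 7.9. Their median log2 fold changes were 0.59 in ADAR and 0.64 in HNRNPH1, against 0.29 and 0.34 over all genes tested. Other lncRNAs of at least 1 FPKM in input (2286 genes) were enriched more often, with 43.6% in ADAR and 45.0% in HNRNPH1, and protein-coding genes of that level (11175) less often, with 18.6% and 20.9%. The median of all genes per library was itself 0.979 log2 units above input in ADAR and 0.735 in HNRNPH1, and after centring each library on its median ADAR enriched 46 and depleted 67 and HNRNPH1 enriched 52 and depleted 38. The balance of enriched over depleted RNAs in ADAR therefore turned with the scaling, and so did the order, since PABP (68), DNMT1 (63) and EZH2 (59) then enriched more. The enriched shares after centring were 27.5% in PABP beside 20.9% of all genes tested, 25.5% beside 11.8% in DNMT1, 23.9% beside 13.2% in EZH2, 21.1% beside 8.59% in HNRNPH1 and 18.6% beside 11.6% in ADAR. The depleted shares after centring were 27.1% beside 35.2% in ADAR and 15.4% beside 22.1% in HNRNPH1, both below the share of all genes.

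GAS5-AS1 (chr1:173831611-173833079, plus strand), antisense to the growth arrest transcript and small nucleolar RNA host GAS5, was the leading RNA in ADAR. Its 3 ADAR libraries gave 217, 275 and 311 FPKM, and its 9 inputs lay between 5.11 and 17.3 FPKM with a median of 8.88 FPKM. All 3 stood far above every input, at a log2 fold change of 4.71 (SE 0.28, adjusted p = 2.49e-22, two-sided exact permutation p = 0.00455, the smallest that 3 against 9 libraries allow). The STAG2 control gave 9.78 and 11.0 FPKM for GAS5-AS1, within the input range. HNRNPH1 enriched it as well, with 35.6, 48.7 and 60.7 FPKM (log2 fold change 2.25, adjusted p = 4.65e-10), whereas PABP held only 0.935, 0.658 and 1.04 FPKM (−2.44, adjusted p = 5.44e-11).

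Other leading RNAs of the ADAR fRIP were NCBP2-AS1, XIAP-AS1 and SPAG5-AS1. NCBP2-AS1 gave 47.9, 64.8 and 59.1 FPKM against 1.48 ± 0.563 FPKM in input (SD, n = 9), a log2 fold change of 4.58 (SE 0.23, adjusted p = 1.46e-25). XIAP-AS1, opposite an intron of the apoptosis inhibitor gene XIAP, gave 100.0, 130 and 102 FPKM against 4.64 ± 1.85 FPKM (4.36, SE 0.23, adjusted p = 1.75e-24). SPAG5-AS1, divergent from the spindle gene SPAG5, gave 166, 167 and 164 FPKM against 7.41 ± 1.85 FPKM (4.34, SE 0.18, adjusted p = 4.48e-30). None of these libraries overlapped the inputs, although ADAR libraries were the shallowest of the series and XIAP-AS1 rested on 65 to 95 fragments per library.

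The well known OIP5-AS1 (chr15:41576156-41614590, plus strand) was enriched in ADAR alone among the 24 fRIPs. Its ADAR libraries held 503, 534 and 526 FPKM, and its inputs 55.2 to 77.9 FPKM with a median of 70.3 FPKM. The fRIP libraries were close to each other and all above the inputs (log2 fold change 2.90, SE 0.13, adjusted p = 1.79e-28, and 1.92 after centring). In HUR, 138, 128 and 141 FPKM of OIP5-AS1 were also all above the inputs, but the log2 fold change of 0.97 (SE 0.13, adjusted p = 5.85e-09) stayed under the size limit. PCAF depleted it to 38.0, 27.3 and 35.4 FPKM (−1.03, adjusted p = 3.29e-09), and this call was lost against the matched input set (−0.86) and after centring (−0.42).

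**Figure D2:**
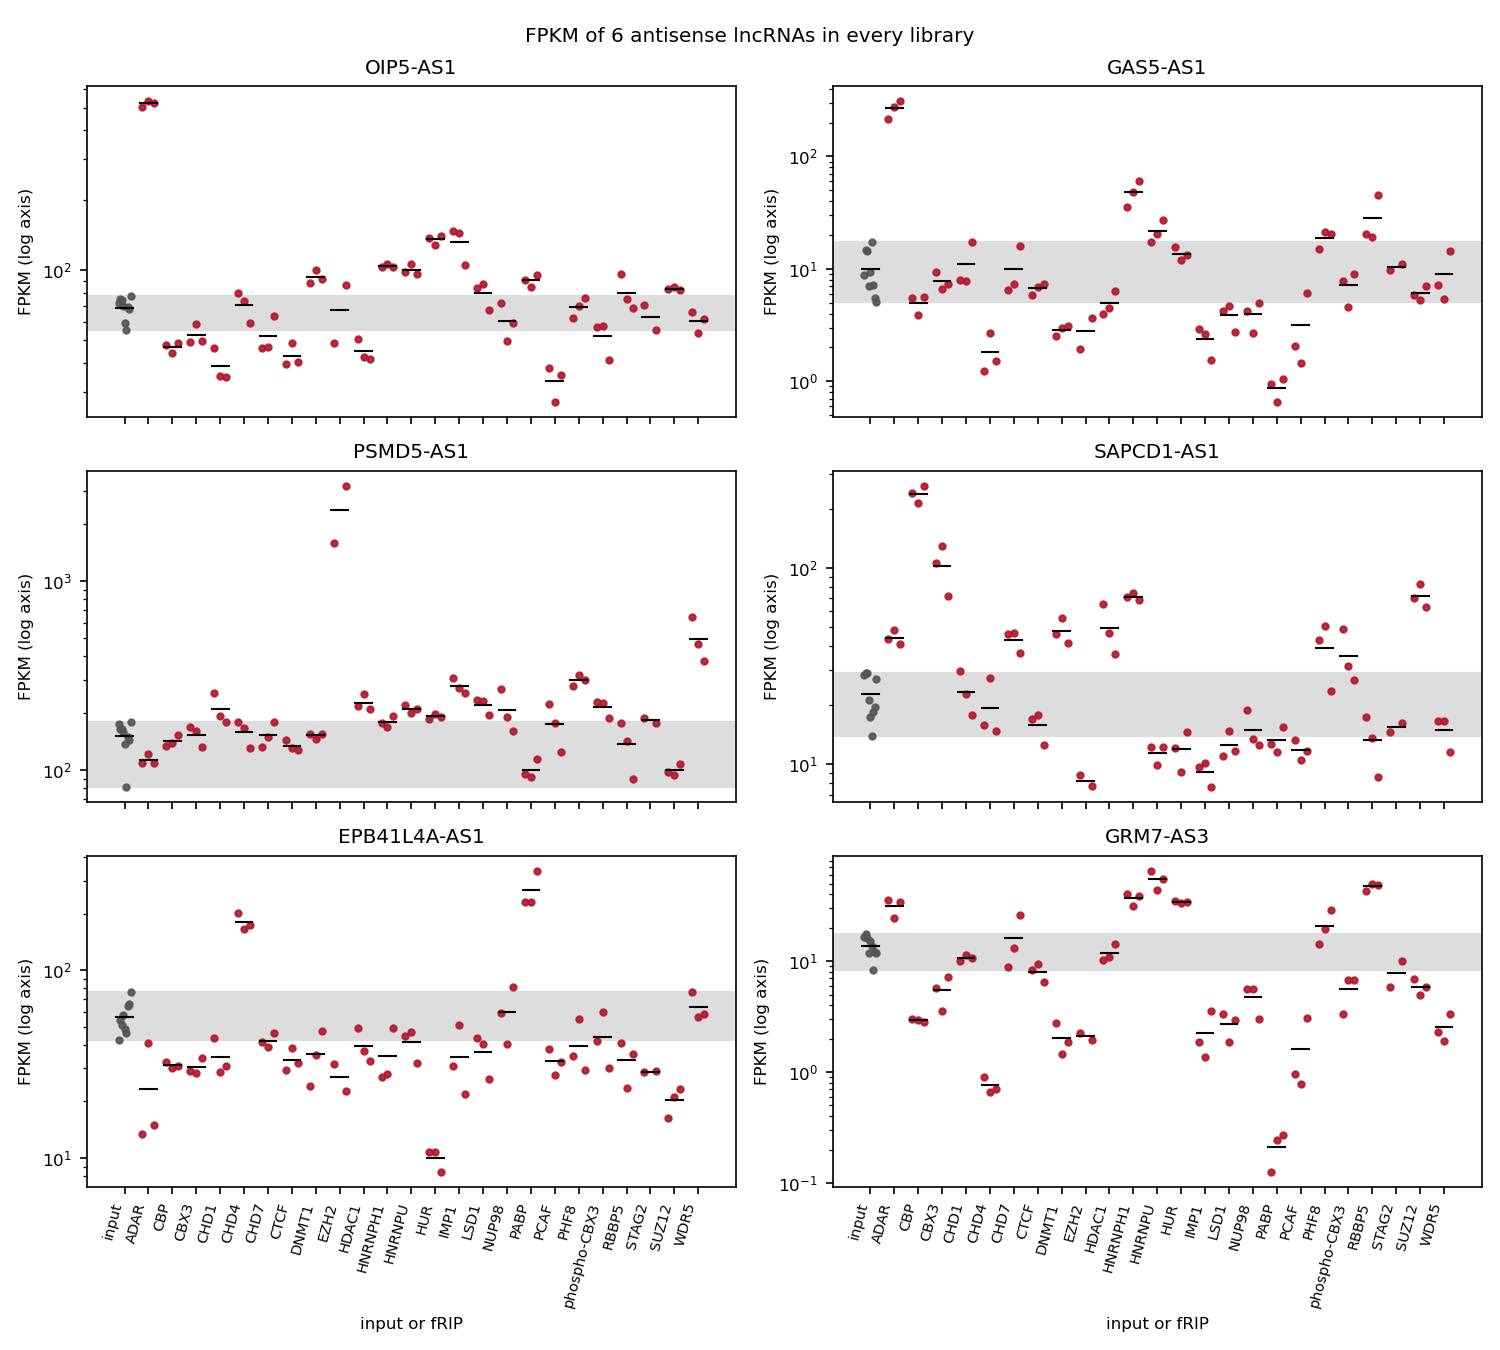
FPKM (log axis) of 6 antisense lncRNAs in every library, one point per library, with the range of the 9 inputs as a grey band and a black bar at each group's mean. OIP5-AS1 and GAS5-AS1 rise above the band in ADAR, PSMD5-AS1 in EZH2, SAPCD1-AS1 in CBP and EPB41L4A-AS1 in PABP and CHD4, while GRM7-AS3 falls far below its band in PABP.

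The largest log2 fold change in HNRNPH1 belonged to GLYCTK-AS1, with 137, 279 and 155 FPKM and a log2 fold change of 5.29 (SE 0.63, adjusted p = 1.14e-10). Its input was uneven, with 1 library at 49.43 FPKM, a median of 2.76 FPKM and a lowest of 1.34 FPKM, and its main transcript has only 109 bases. Calls of GLYCTK-AS1 in HNRNPU (7.94, 8.13 and 114.5 FPKM) and CBP (8.21, 6.57 and 53.1 FPKM) rested on 1 library each, and without it the log2 fold changes fell to 0.96 and 0.84. In ADAR it was the leading depleted RNA, with 0, 0.887 and 0.913 FPKM (−1.60, adjusted p = 0.0256), but the exact permutation p was 0.0909 and 2 of 12 fits without 1 library lost the call.

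Firmer examples of HNRNPH1 enrichment were PRR7-AS1, UNC5B-AS1 and KDM4A-AS1. PRR7-AS1 held 156, 110.0 and 90.6 FPKM in HNRNPH1 against inputs of 5.87 to 20.1 FPKM (log2 fold change 3.35, SE 0.30, adjusted p = 9.74e-15). UNC5B-AS1, opposite an intron of the netrin receptor gene UNC5B, held 14.5, 29.9 and 20.4 FPKM against inputs of 0.467 to 2.93 FPKM (3.18, SE 0.36, adjusted p = 2.42e-11). KDM4A-AS1, antisense to exons of the histone demethylase gene KDM4A, held 99.5, 93.8 and 132 FPKM in HNRNPH1 (2.53, adjusted p = 2.56e-18) and 111, 78.6 and 115 FPKM in ADAR (2.43, adjusted p = 6.47e-18), above 18.1 ± 3.14 FPKM in input. In STAG2, KDM4A-AS1 was at 21.3 and 21.5 FPKM. The lowest in HNRNPH1 was ZNF32-AS1, with 2.38, 0.528 and 1.11 FPKM against 5.53 ± 1.09 FPKM (−1.54, adjusted p = 1.25e-07), on at most 5 fragments per library.

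HNRNPU, the nuclear scaffold protein, enriched 55 antisense lncRNAs (22.3% beside a background of 13.1) and depleted 2 (0.81% beside 2.52). Other lncRNAs were enriched in 30.9% and protein-coding genes in 4.87%. Centring on the library median, which lay 0.591 above input, left 19 enriched (7.69% beside 4.66%) and 25 depleted (10.1% beside 13.7%), which turned the balance, and the matched input set left 31 and 2. UNC5B-AS1 led with 7.13, 28.4 and 11.5 FPKM (log2 fold change 2.58, adjusted p = 2.66e-08), and MCM3AP-AS1, antisense to exons of MCM3AP, rose to 15.5, 13.4 and 12.6 FPKM from 2.61 ± 0.674 FPKM (2.06, adjusted p = 2.18e-16). NCBP2-AS2 was the lowest RNA without overlap, with 11.9, 10.7 and 12.3 FPKM against 27.4 ± 6.75 FPKM (−1.13, adjusted p = 2.26e-08), a call lost against the matched input set (−0.67).

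HUR, which binds AU-rich RNA, enriched 22 (8.91% beside 6.42) and depleted 9 (3.64% beside 6.93). After centring HUR enriched 10 (4.05% beside 2.72%) and depleted 14 (5.67% beside 10.6%), which turned the balance. The RNA leading by size was ALG13-AS1 with 21.1, 16.2 and 19.8 FPKM (log2 fold change 1.49, adjusted p = 0.0103), but these stood for 5 to 8 fragments and the call was lost with a pseudocount of 0.1 FPKM (adjusted p = 0.197). GRM7-AS3 rose from 13.7 ± 2.96 FPKM to 34.8, 33.7 and 34.4 FPKM (1.29, adjusted p = 3.73e-06). Depletion was larger in size. NCBP2-AS2 fell to 3.10, 4.35 and 3.68 FPKM (−2.56, adjusted p = 1.02e-20), EPB41L4A-AS1 to 10.8, 10.8 and 8.46 FPKM from inputs of 42.7 to 76.8 FPKM (−2.37, adjusted p = 9.00e-13), and TOPORS-AS1 to 1.78, 1.19 and 2.23 FPKM (−1.31, adjusted p = 0.000428).

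IMP1, a cytoplasmic mRNA binding protein, depleted 41 (16.6% beside 10.5, and 15.8% of genes of at least 1 FPKM in input) and enriched 9 (3.64% beside 4.23). After centring on a library median of −0.457 the split was 28 enriched (11.3% beside 12.5%) and 14 depleted (5.67% beside 3.62%), so the direction of the balance turned with the scaling. The leading enriched RNA was TAB3-AS2, whose exonic bases all lie opposite exons of the kinase adaptor gene TAB3, with 35.2, 31.6 and 32.6 FPKM against inputs of 2.86 to 8.56 FPKM (log2 fold change 2.32, SE 0.38, adjusted p = 8.37e-07). CERS6-AS1, with 97.5% of its exonic bases opposite exons of the ceramide synthase gene CERS6, gave 23.3, 20.2 and 27.0 FPKM against 7.52 ± 1.29 FPKM (1.53, adjusted p = 1.72e-11). FGD5-AS1, which lies apart from FGD5, reached 154, 137 and 133 FPKM from 51.4 ± 3.17 FPKM (1.44, adjusted p = 6.05e-14) and rose to a like extent in EZH2 (139 and 233 FPKM, 1.79) and WDR5 (170, 142 and 223 FPKM, 1.75). The lowest was MYB-AS1, with 2.61, 1.51 and 3.08 FPKM in IMP1 (−2.33, adjusted p = 1.63e-08).

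PABP, which coats poly(A) tails, moved many RNAs in both directions. It enriched 38 (15.4% beside 11.1) and depleted 58 (23.5% beside 14.7), both shares close to the 16.1% and 22.2% of genes of at least 1 FPKM in input. After centring on a library median of −0.492 PABP enriched 68 (27.5% beside 20.9%) and depleted 32 (13.0% beside 6.93%), which turned the balance. Other lncRNAs were depleted in 37.7% and protein-coding genes in 12.8%. TOPORS-AS1 rose to 37.2, 39.7 and 52.9 FPKM from inputs of 2.60 to 11.4 FPKM (log2 fold change 2.71, SE 0.31, adjusted p = 3.96e-11), EPB41L4A-AS1 to 231, 231 and 338 FPKM (2.22, adjusted p = 3.08e-12), C17orf76-AS1 to 2644, 2392 and 3148 FPKM (1.93, adjusted p = 1.12e-18) and NCBP2-AS2 to 82.6, 86.4 and 87.7 FPKM (1.65, adjusted p = 1.13e-13).

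At the other end of the PABP fRIP, MYB-AS1, antisense to exons of the haematopoietic transcription factor gene MYB, was listed at 0.519, 0 and 0.174 FPKM against inputs of 10.9 to 30.8 FPKM (log2 fold change −3.79, SE 0.32, adjusted p = 1.31e-15). GRM7-AS3 held 0.127, 0.244 and 0.269 FPKM against inputs of 8.32 to 17.5 FPKM (−3.57, SE 0.23, adjusted p = 1.88e-20). Both rested on at most 4 fragments per PABP library. MYB itself gave 146, 144 and 116 FPKM in PABP against 142 ± 22.6 FPKM, within its input spread (−0.06, adjusted p = 0.749).

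Among the CAPs, DNMT1, the maintenance DNA methyltransferase, enriched the largest number of antisense lncRNAs, 57 (23.1% beside 9.56), and depleted 15 (6.07% beside 6.88). The share enriched was 13.5% for other lncRNAs and 15.2% for protein-coding genes. Of the genes of at least 1 FPKM in input, 83 had a LINC symbol and 48 an IT or OT symbol. Their enriched shares in DNMT1 were 26.5% and 2.08%. Against the matched input set DNMT1 enriched 55 and depleted 34. DNMT1 libraries were the deepest of the series. DHRS4-AS1 (ENSG00000215256.3), with 5.2% of its exonic bases opposite exons of the dehydrogenase gene DHRS4, led with 28.6, 23.3 and 22.7 FPKM against 4.74 ± 1.63 FPKM (log2 fold change 2.21, SE 0.21, adjusted p = 5.19e-13). TMPO-AS1 gave 8.36, 8.62 and 7.96 FPKM in DNMT1 (1.59, adjusted p = 8.63e-15), all above its inputs. Among the depleted RNAs were the intronic ST7-AS2, the lowest in DNMT1, with 0.628, 0.684 and 0.709 FPKM against 7.59 ± 2.69 FPKM (−2.30, adjusted p = 4.61e-13), and C17orf76-AS1, with 162, 196 and 291 FPKM (−1.76, adjusted p = 1.56e-16; the 3 libraries were unequal but all below every input).

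EZH2 and SUZ12 belong to Polycomb repressive complex 2, in which EZH2 methylates histone H3. EZH2 enriched 55 (22.3% beside 10.5) and depleted 29 (11.7% beside 9.13), and SUZ12 enriched 43 (17.4% beside 15.3) and depleted 18 (7.29% beside 8.6), both shares below the 21.1% and 13.0% of genes of at least 1 FPKM in input. Of the 117 RNAs with under 5% of their exonic bases over another gene SUZ12 enriched 9 (7.69%). PSMD5-AS1 in EZH2 had 1595 and 3191 FPKM, both far above its highest input of 180 FPKM, and the libraries differed from each other. Its log2 fold change was 3.93 (SE 0.20, adjusted p = 1.33e-24, exact p = 0.0182, the smallest that 2 against 9 libraries allow), and 3.43 to 4.43 in fits without 1 library. The same RNA in SUZ12 gave 98.0, 93.6 and 107 FPKM, at a log2 fold change of −0.57 (adjusted p = 0.00434) that was not called.

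BAIAP2-AS1, divergent from BAIAP2, had 33.8 and 64.3 FPKM in EZH2 against inputs of 2.52 to 5.69 FPKM (log2 fold change 3.41, SE 0.22, adjusted p = 3.46e-20), and VPS9D1-AS1 35.5 and 34.7 FPKM against 5.92 ± 2.25 FPKM (2.44, adjusted p = 2.09e-09). All these EZH2 libraries lay above every input. ATP1B3-AS1, opposite an intron of the sodium pump gene ATP1B3, was at the other end with 0.377 and 0 FPKM against 5.81 ± 1.31 FPKM (−2.51, adjusted p = 1.59e-09), on at most 1 fragment.

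In SUZ12 the leading RNA was DIAPH3-AS1, antisense to exons of the formin gene DIAPH3, with 48.1, 52.0 and 57.6 FPKM against inputs of 6.51 to 12.9 FPKM (log2 fold change 2.35, SE 0.27, adjusted p = 2.57e-11). TTN-AS1, antisense to exons of the giant muscle gene TTN, gave 95.0, 100.3 and 121 FPKM against 26.9 ± 6.21 FPKM (1.96, adjusted p = 1.28e-17), and MYB-AS1 90.9, 43.4 and 63.1 FPKM (1.94, adjusted p = 5.83e-07). MYB rose in SUZ12 too, to 543, 311 and 464 FPKM (1.60, adjusted p = 1.71e-14). C17orf76-AS1 was the lowest, with 152, 161 and 163 FPKM, all below its inputs (−2.16, adjusted p = 4.28e-21).

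CHD4, HDAC1 and LSD1 are enzymes of repressive complexes, a nucleosome remodeller, a histone deacetylase and a histone demethylase. CHD4 enriched 25 (10.1% beside 2.91) and depleted 43 (17.4% beside 9.79), and 45 (18.2% beside 10.4%) and 21 (8.5% beside 4.55%) after centring on a library median of −0.403, which turned the balance. Its enriched share was 4.81% for other lncRNAs and 4.37% for protein-coding genes. The share was 10.8% for the 83 genes with a LINC symbol, close to the 10.1% of the antisense lncRNAs. Of the 48 with an IT or OT symbol 0 were enriched. EPB41L4A-AS1 led CHD4 with 202, 165 and 174 FPKM (log2 fold change 1.68, SE 0.23, adjusted p = 2.97e-08), and CHD4 also enriched TOPORS-AS1 with 18.7, 12.1 and 20.9 FPKM (1.42, adjusted p = 0.000155) and NCBP2-AS2 with 62.7, 68.3 and 77.8 FPKM (1.35, adjusted p = 2.80e-10). PABP had enriched these same 3 RNAs. MYB-AS1 (0.666, 0.839 and 0.971 FPKM, −3.20) and GRM7-AS3 (0.908, 0.665 and 0.709 FPKM, −3.04) were far below input in CHD4, as in PABP.

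HDAC1 enriched 30 (12.1% beside 8.42) and depleted 5 (2.02% beside 5.35). After centring HDAC1 enriched 16 (6.48% beside 4.21%) and depleted 14 (5.67% beside 9.96%). TLR8-AS1, opposite an intron of the RNA sensor gene TLR8, led HDAC1 with 60.3, 43.9 and 38.4 FPKM (log2 fold change 1.79, SE 0.50, adjusted p = 0.00284), but its inputs ran from 3.05 to 34.2 FPKM and the call was lost against the matched input set (adjusted p = 0.193). C17orf76-AS1 fell to 206, 194 and 177 FPKM in HDAC1 (−1.88, adjusted p = 1.47e-17). LSD1 enriched 1 (0.405% beside 0.814) and depleted 29 (11.7% beside 6.66), and after centring on a library median of −0.412 it enriched 8 (3.24% beside 4.76%) and depleted 9 (3.64% beside 2.41%). The single RNA enriched in LSD1 before centring was TAB3-AS2, with 14.8, 14.8 and 12.0 FPKM against 6.12 ± 1.98 FPKM (1.11, adjusted p = 0.0202), and the call was lost against the matched input set (0.91), with a pseudocount of 0.1 FPKM (adjusted p = 0.145) and in 2 of 12 fits without 1 library. ALG13-AS1 was listed in LSD1 at 0, 0 and 2.21 FPKM.

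PHF8, RBBP5 and WDR5 act around histone H3 methylation of active promoters, PHF8 as a demethylase and the others as subunits of the MLL/SET1 complexes. PHF8 enriched 33 (13.4% beside 3.18) and depleted 0 beside 1.71 in limma, with 9 RNAs lower at an unadjusted p under 0.05. Its median log2 fold change was 0.42, against 0.08 over all genes. The enriched share was 8.75% for other lncRNAs and 3.07% for protein-coding genes. It was 14.5% for the 83 genes with a LINC symbol and 4.17% for the 48 with an IT or OT symbol. After centring PHF8 enriched 15 (6.07% beside 1.29%) and depleted 3 (1.21% beside 3.18%). PRR7-AS1 led PHF8 with 38.4, 71.0 and 22.5 FPKM, all above its inputs (log2 fold change 1.82, SE 0.30, adjusted p = 3.84e-06). SETD5-AS1, divergent from the SETD5 gene, gave 169, 166 and 167 FPKM against 70.5 ± 14.0 FPKM (1.26, adjusted p = 1.06e-06).

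RBBP5 enriched 15 (6.07% beside 2.28) and depleted 0 beside 0.731 in limma, with 24 lower at an unadjusted p under 0.05. After centring RBBP5 enriched 8 (3.24% beside 1.03%) and depleted 3 (1.21% beside 1.76%). BIRC6-AS1, antisense to the apoptosis inhibitor gene BIRC6, led with 12.9, 9.47 and 15.6 FPKM against inputs of 1.62 to 4.29 FPKM (log2 fold change 1.76, SE 0.22, adjusted p = 6.12e-09). GRM7-AS3 followed with 43.0, 49.9 and 49.0 FPKM (1.74, adjusted p = 2.70e-08), and MYB-AS1 gave 41.9, 39.6 and 51.0 FPKM (1.42, adjusted p = 0.000591). WDR5 enriched 20 (8.1% beside 3.9) and depleted 29 (11.7% beside 6.71), with 19 depleted against the matched input set, with or without a block on the replicate number. After centring WDR5 enriched 34 (13.8% beside 9.52%) and depleted 13 (5.26% beside 2.66%), which turned the balance. In WDR5, without centring, BAIAP2-AS1 gave 14.0, 12.8 and 16.9 FPKM (1.78, adjusted p = 1.35e-11) and PSMD5-AS1 643, 463 and 375 FPKM (1.70, adjusted p = 3.11e-12), both of which EZH2 had enriched. ALG13-AS1 was listed in WDR5 at 0, 0.776 and 0 FPKM.

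CBX3, a heterochromatin protein that binds methylated histone H3, enriched 22 (8.91% beside 7.45) and depleted 7 (2.83% beside 3.65). After centring CBX3 enriched 14 (5.67% beside 5.4%) and depleted 8 (3.24% beside 5.4%), and against the matched input set 10 and 9. Its phosphorylated form enriched 4 (1.62% beside 2.58) and depleted 7 (2.83% beside 2.91), with 5 (2.02% beside 3.2%) and 5 (2.02% beside 2.33%) after centring. SAPCD1-AS1 led CBX3 with 105, 128 and 72.0 FPKM (log2 fold change 2.12, adjusted p = 5.54e-13), and CERS6-AS1 was lowest with 2.20, 2.06 and 2.23 FPKM (−1.42, adjusted p = 2.11e-10). TTN-AS1 led phospho-CBX3 with 81.7, 70.8 and 55.7 FPKM (1.35, adjusted p = 1.34e-10) and gave 72.2, 66.4 and 61.3 FPKM in CBX3 (1.31), but against the matched input set these fell to 0.99 and 0.95 and neither was called. ALG13-AS1 was listed at 0 in all 3 phospho-CBX3 libraries.

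CBP and PCAF are histone acetyltransferases. CBP enriched 17 (6.88% beside 9.08) and depleted 6 (2.43% beside 3.78), and it enriched 4 (3.42%) of the 117 with under 5% of their exonic bases over another gene. Its leading RNA was SAPCD1-AS1 (chr6:31732087-31733365, minus strand), with 239, 212 and 260 FPKM against inputs of 13.9 to 29.2 FPKM (log2 fold change 3.36, SE 0.20, adjusted p = 2.40e-21). Of its exonic bases 89.2% lie opposite exons of other genes, and the sense gene SAPCD1 rose in CBP by more, to 353, 273 and 334 FPKM from 16.2 ± 4.62 FPKM (4.26, SE 0.26, adjusted p = 4.50e-21). GRM7-AS3 was lowest in CBP with 3.03, 2.93 and 2.83 FPKM (−1.87, adjusted p = 4.12e-10).

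PCAF enriched 0 beside 0.515 in limma, with 7 higher at an unadjusted p under 0.05, and depleted 57 (23.1% beside 8.54). The depleted share was 30.3% for other lncRNAs and 3.5% for protein-coding genes. The library median relative to input was −0.612, and centring left 8 enriched (3.24% beside 11.8% of all genes tested) and 13 depleted (5.26% beside 2.54%). The matched input set left 32 depleted, and 34 with a block on the replicate number within it, while the block alone left 57. GRM7-AS3 was the leading depleted RNA with 0.967, 0.780 and 3.09 FPKM (log2 fold change −2.57, SE 0.23, adjusted p = 7.96e-14). SETD5-AS1 fell to 26.6, 26.4 and 20.0 FPKM (−1.48, adjusted p = 1.77e-08, and −0.87 after centring).

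NUP98, a nuclear pore protein, enriched 1 (0.405% beside 0.263) and depleted 25 (10.1% beside 5.11). After centring on a library median of −0.413 NUP98 enriched 8 (3.24% beside 2.79%) and depleted 6 (2.43% beside 1.77%), which turned the balance. Against the matched input set it enriched 2 and depleted 11, and 2 and 14 with a block on the replicate number within that set, while the block alone left 1 and 25. The single RNA enriched against all inputs without centring was ARAP1-AS1, with 99.2% of its exonic bases opposite exons of the GTPase regulator gene ARAP1, at 119, 177 and 100.5 FPKM against inputs of 15.2 to 31.8 FPKM (log2 fold change 2.31, SE 0.19, adjusted p = 3.96e-14). ALG13-AS1 was listed in NUP98 at 0, 1.79 and 0 FPKM.

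The chromatin remodellers CHD1 and CHD7, the insulator protein CTCF and the cohesin subunit STAG2 called few antisense lncRNAs. CHD1 enriched 1 (0.405% beside 0.424) and depleted 4 (1.62% beside 1.0, and 1.52% of genes of at least 1 FPKM in input). After centring CHD1 enriched 2 (0.81% beside 0.641%) and depleted 3 (1.21% beside 0.684%). Against the matched input set it depleted 0, with or without a block on the replicate number. CHD7 enriched 2 (0.81% beside 0.99) and depleted 0 beside 0.896 in limma, with 21 lower at an unadjusted p under 0.05. CTCF enriched 1 (0.405% beside 0.424) and depleted 3 (1.21% beside 0.79). STAG2 enriched 1 (0.405% beside 0.979) and depleted 14 (5.67% beside 3.36). After centring STAG2 enriched 3 (1.21% beside 1.22%) and depleted 13 (5.26% beside 2.88%). Genes below 1 FPKM in input cannot be called depleted. The 201 genes depleted in CTCF and the 856 in STAG2 therefore all lay among the 16830 of at least 1 FPKM, and the depleted backgrounds of all genes understate those of this level.

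In CHD1 the enriched RNA was MAPKAPK5-AS1, divergent from the kinase gene MAPKAPK5, with 32.8, 28.6 and 43.96 FPKM against inputs of 9.31 to 18.4 FPKM (log2 fold change 1.41, adjusted p = 5.04e-06). ATP1B3-AS1 was lowest in CTCF with 1.13, 2.37 and 0.847 FPKM (−1.502, adjusted p = 4.88e-05). In STAG2 the enriched RNA was NCBP2-AS1 with 4.84 and 3.25 FPKM (1.04, adjusted p = 0.00626), a call lost against the matched input set (0.955) and in 4 of 11 fits without 1 library. ALG13-AS1 was listed at 0 in both STAG2 libraries. Of the 3 RNAs depleted in CHD1 without overlap with the inputs, XIAP-AS1 was lowest with 1.58, 1.32 and 1.14 FPKM (−1.20, adjusted p = 0.000252), a call lost against the matched input set (−0.95).

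**Figure D3:**
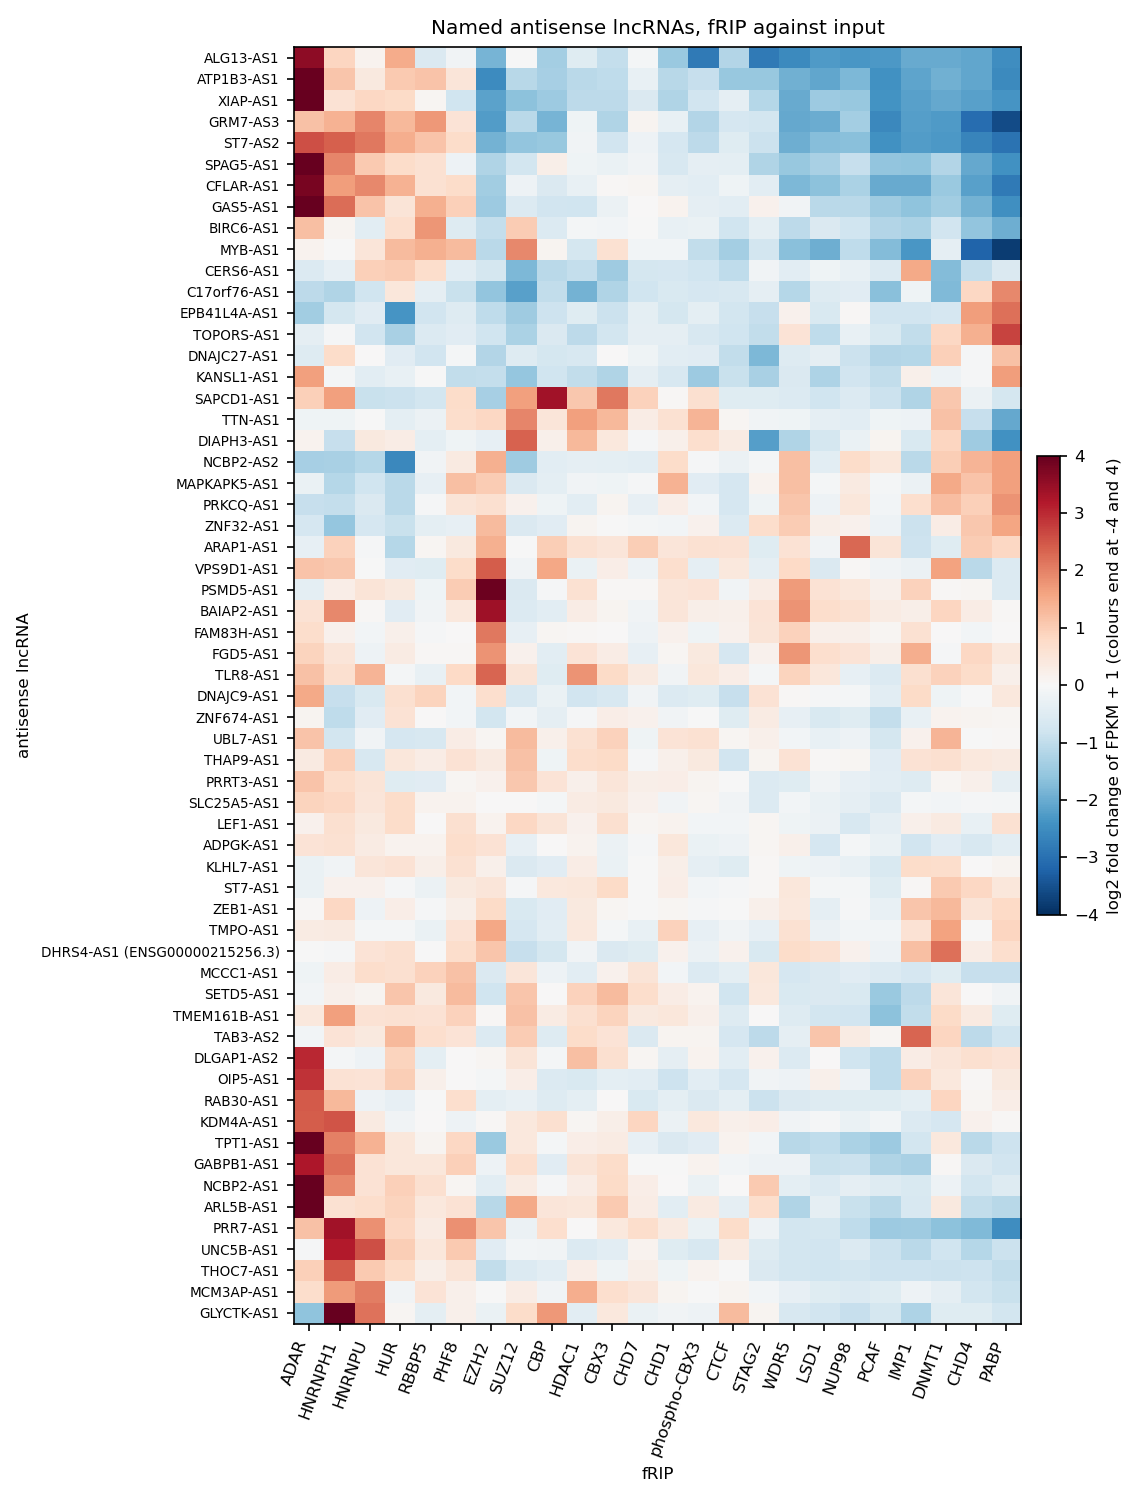
Log2 fold change against input (colour, ending at −4 and 4) of 60 antisense lncRNAs chosen by fixed rules in the 24 fRIPs, both axes ordered by average linkage. GRM7-AS3, ST7-AS2, SPAG5-AS1 and CFLAR-AS1 are high in ADAR, HNRNPH1 and HNRNPU and low in PABP, CHD4 and PCAF, and EPB41L4A-AS1 and TOPORS-AS1 are high in PABP and CHD4.

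Single RNAs differed in how many fRIPs moved them. GAS5-AS1 spanned the widest range of log2 fold changes over the 24 fRIPs, 7.15 units, followed by GLYCTK-AS1 (6.89), XIAP-AS1 (6.76), SPAG5-AS1 (6.75) and CFLAR-AS1 (6.61). The narrowest ranges were those of KLHL7-AS1 (1.33), SLC25A5-AS1 (1.44), ADPGK-AS1 (1.45), LEF1-AS1 (1.47) and ST7-AS1 (1.51). Of these 5 only ST7-AS1 was called, in DNMT1, with 4.22, 5.42 and 6.79 FPKM against 2.17 ± 0.583 FPKM (1.03, adjusted p = 1.10e-05), a call lost against the matched input set (0.96) and in 2 of 12 fits without 1 library.

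GRM7-AS3 was depleted in 13 fRIPs and enriched in 5 (ADAR, HNRNPH1, HNRNPU, HUR and RBBP5), of which the ADAR call was lost against the matched input set (0.86). In HNRNPU it held 65.0, 44.1 and 55.5 FPKM, all above its inputs (log2 fold change 1.94, adjusted p = 2.18e-10). ATP1B3-AS1 was depleted in 16 fRIPs, the highest count of the 247, and enriched in 4, with 84.9, 142 and 88.4 FPKM in ADAR (3.95, adjusted p = 1.20e-19). XIAP-AS1 was depleted in 15 and enriched in ADAR alone, and its PCAF libraries were listed at 0.0748, 0 and 0 FPKM. In the other direction MAPKAPK5-AS1 was enriched in 7 fRIPs, among them PABP (42.2, 40.2 and 40.0 FPKM, 1.64, adjusted p = 3.04e-09) and DNMT1 (31.8, 36.99 and 43.2 FPKM, 1.502, adjusted p = 5.41e-08), and depleted in HNRNPH1 (lost against the matched input set, −0.86) and HUR. C17orf76-AS1 was enriched in PABP alone and depleted in 9 fRIPs. Because all fRIPs share the 9 inputs, the values of one RNA in several fRIPs are not independent.

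Position relative to the sense gene went with the fRIP profile. In DNMT1 the median log2 fold change was 0.75 over the 44 divergent RNAs, 0.41 over the 118 with exon overlap, 0.37 over the 26 apart and −0.49 over the 48 intronic ones, and 38.6% of the divergent but 10.4% of the intronic RNAs were enriched. EZH2 had medians of 0.20 for divergent and −0.41 for intronic RNAs, CHD4 0.09 and −0.62, and PABP 0.04 and −0.68. In PABP the enriched share did not follow the medians, with 22.9% of the intronic and 15.9% of the divergent RNAs enriched, while 39.6% and 11.4% were depleted. ADAR showed the other order, with 0.35 for divergent and 0.95 for intronic RNAs, as did HNRNPU (0.40 and 0.84) and HUR (0.39 and 0.61). PCAF was below input in every class, from −0.44 with exon overlap to −0.86 for intronic RNAs. The library median of all genes in PCAF was itself −0.61 relative to input, and after centring the median over the 247 was 0.062.

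The classes also differed in other ways. Intronic RNAs had the lowest median input (2.06 FPKM, against 4.07 FPKM for divergent and 6.56 FPKM for those apart) and the shortest main transcripts (559.5 bases, against 1797 for divergent ones). Unspliced RNA of the sense gene covers all or part of the bases of an intronic antisense RNA. The part of level, length and overlapping sense RNA in these medians was not tested.

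**Figure D4:**
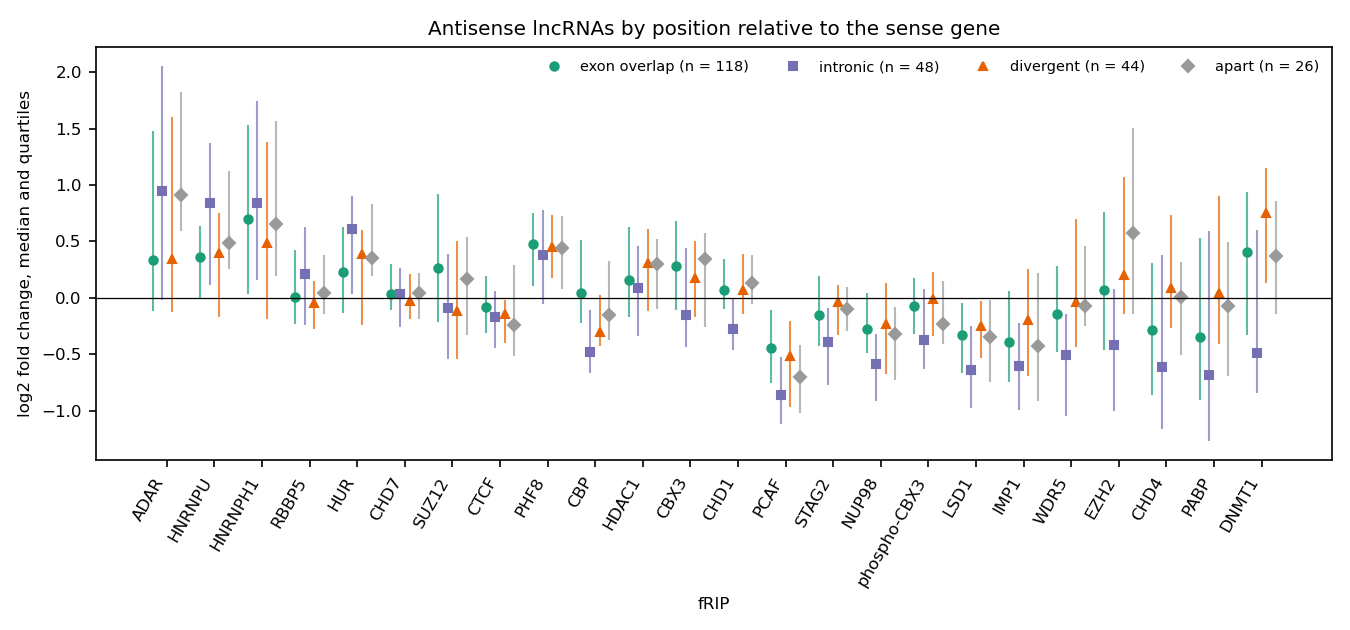
Median (point) and quartiles (line) of the log2 fold change against input of antisense lncRNAs by position, exon overlap (118), intronic (48), divergent (44) and apart (26), in each fRIP, ordered by divergent minus intronic. DNMT1 (0.75 against −0.49) stands at one end and ADAR (0.35 against 0.95) at the other.

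Each antisense lncRNA was then compared with its sense gene within the same libraries. The difference of log2(FPKM + 1) between both was fitted in limma over 406 pairs, of which 238 were pairs of the antisense lncRNAs described here, and was called at an adjusted p under 0.05 and a difference beyond 1. Since both values come from the same library, a shift of a whole library cancels. Because strand use is not stated, each overlapping pair below is given with the share of the antisense exons that lies opposite exons of the sense gene.

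In ADAR, HNRNPH1, HNRNPU and HUR the antisense RNA was called above the sense gene more often than below. In ADAR 92 pairs were above (38.7% beside 32.5 over all pairs tested) and 21 below (8.82% beside 8.87), and in HNRNPH1 89 (37.4% beside 34.0) and 23 (9.66% beside 8.87). In HNRNPU 60 were above (25.2% beside 20.9) and 16 below (6.72% beside 5.17), and in HUR 40 (16.8% beside 13.1) and 22 (9.24% beside 7.39). Against the matched input set the HNRNPU counts fell to 34 and 8. Among the CAPs PHF8 had 24 above (10.1% beside 6.9) and 6 below (2.52% beside 2.22), HDAC1 40 (16.8% beside 10.8) and 27 (11.3% beside 10.6), and CBX3 32 (13.4% beside 9.11) and 18 (7.56% beside 8.13). Against the matched input set the order turned in HDAC1 (20 above and 28 below) and CBX3 (11 and 16), but not in PHF8 (31 and 6).

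The reverse held in other fRIPs. Pairs with the antisense RNA below numbered 57 in IMP1 (23.9% beside 20.4), 53 in PCAF (22.3% beside 14.8) and 48 in LSD1 (20.2% beside 14.8), against 11 (4.62% beside 3.2), 1 (0.42% beside 0.739) and 5 (2.1% beside 1.48) above. Both directions were common in SUZ12, with 36 above (15.1% beside 10.6) and 61 below (25.6% beside 28.8), PABP, with 49 above (20.6% beside 18.7) and 63 below (26.5% beside 20.2), EZH2, with 38 (16.0% beside 11.1) and 50 (21.0% beside 21.9), CHD4, with 30 (12.6% beside 9.36) and 39 (16.4% beside 11.8), and DNMT1, with 41 (17.2% beside 11.6) and 41 (17.2% beside 18.0). The EZH2 counts above and below were 53 and 42 without replicate 1 and 24 and 52 without replicate 2, so the larger of the pair changed with the library left out. With a pseudocount of 0.1 FPKM the counts below rose to 66 in CHD4 and 88 in PCAF. Pairs with an antisense RNA below 1 FPKM in input are part of this background, and such values have little room to fall on this scale.

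**Figure D5:**
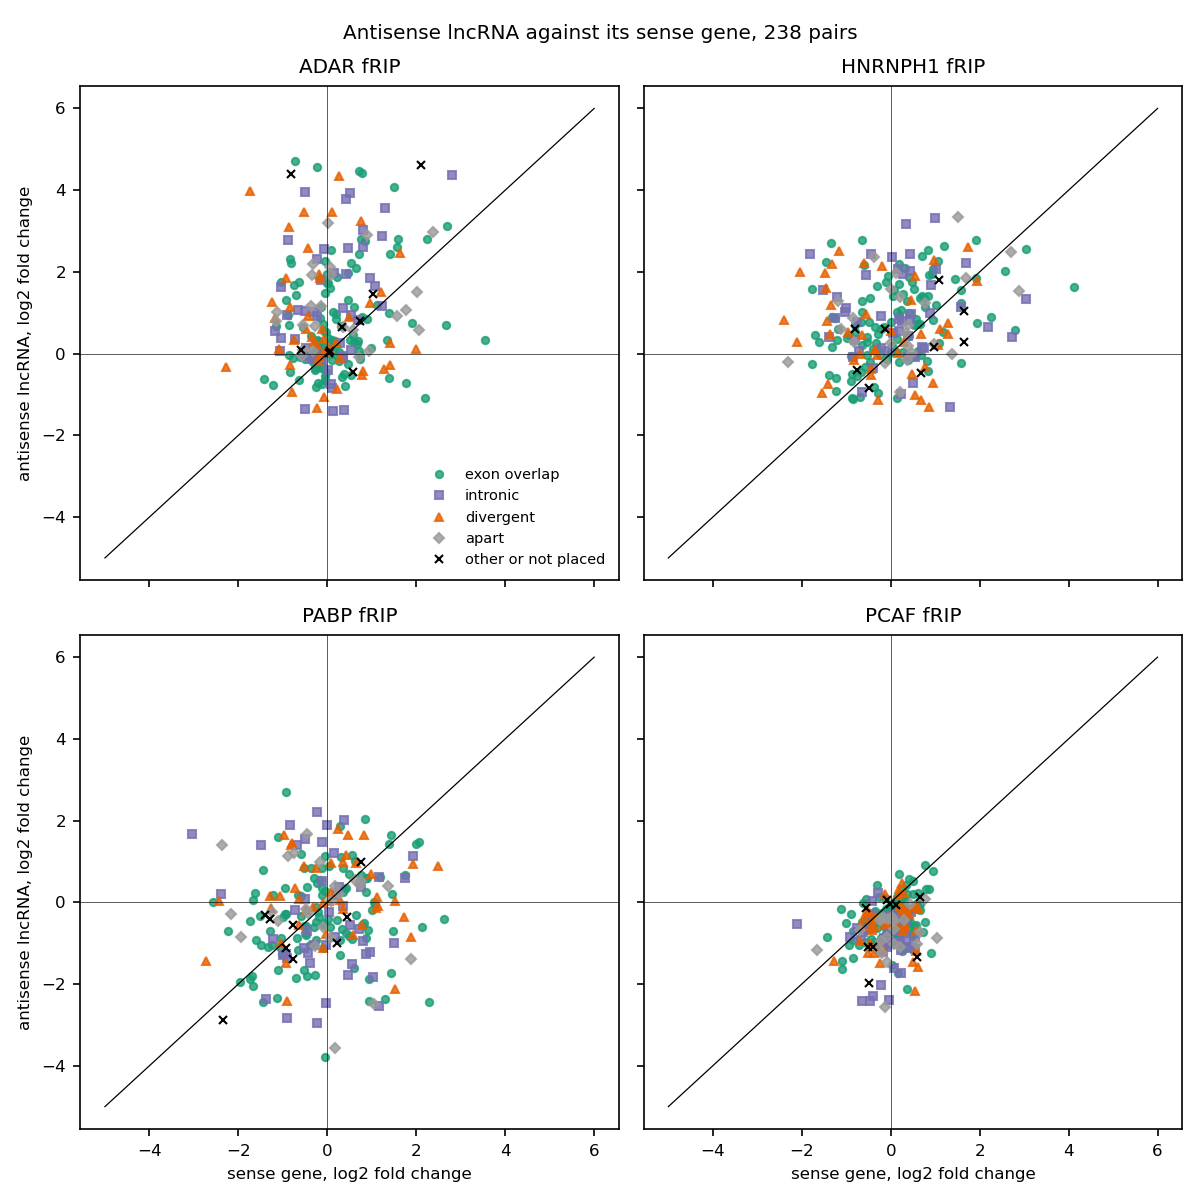
Log2 fold change of the antisense lncRNA (vertical axis) against that of its sense gene (horizontal axis) for 238 pairs in ADAR, HNRNPH1, PABP and PCAF, with the diagonal where both are equal. More points lie above the diagonal in ADAR (92 called above, 21 below) and HNRNPH1 (89 and 23), and below it in PCAF (1 and 53).

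The largest difference was that of TPT1-AS1 and TPT1 in ADAR, 5.71 log2 units (SE 0.27, adjusted p = 1.36e-27). TPT1-AS1 (chr13:45915480-45992110, plus strand) starts 229 bases from the translationally controlled tumour protein gene TPT1 in the divergent direction, without exon overlap. It rose in ADAR to 97.8, 113 and 83.5 FPKM from inputs of 3.17 to 10.0 FPKM (log2 fold change 3.98, adjusted p = 1.27e-19), and TPT1 fell to 204, 176 and 184 FPKM from 628 ± 69.3 FPKM (−1.73, adjusted p = 6.23e-19).

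GAS5-AS1 and GAS5 differed by 5.45 in ADAR (SE 0.29, adjusted p = 2.55e-25) and by −4.73 in PABP (SE 0.29, adjusted p = 9.51e-22). GAS5 gave 302, 349 and 349 FPKM in ADAR (−0.74, not called) against 559 ± 80.6 FPKM, and 2439, 2308 and 3531 FPKM in PABP (2.29, adjusted p = 1.91e-18). The antisense RNA and the host transcript thus lay on opposite sides of input in both fRIPs, with 16.2% of the exonic bases of GAS5-AS1 opposite GAS5 exons.

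Further pairs without exon overlap were THOC7-AS1 in HNRNPH1 and KANSL1-AS1 in PABP. THOC7-AS1 held 11.2, 6.83 and 12.3 FPKM in HNRNPH1 against 1.04 ± 0.512 FPKM (2.45, adjusted p = 1.61e-13), and the mRNA export gene THOC7 18.4, 12.7 and 15.9 FPKM against 57.1 ± 7.04 FPKM (−1.81, adjusted p = 2.86e-17), a difference of 4.26 (SE 0.28). KANSL1-AS1 held 14.8, 12.1 and 22.1 FPKM in PABP against 4.55 ± 1.74 FPKM (1.67, adjusted p = 8.65e-06), and the acetyltransferase subunit gene KANSL1 15.7, 15.5 and 13.4 FPKM against 133 ± 30.6 FPKM (−3.05, adjusted p = 1.93e-27), a difference of 4.72 (SE 0.33). In EZH2, PSMD5-AS1 exceeded PSMD5 by 4.47 (SE 0.25, adjusted p = 9.01e-24), with PSMD5 at 42.5 and 42.9 FPKM against 62.9 ± 7.27 FPKM (−0.54, not called).

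Calls in opposite directions within a pair occurred 73 times over the 24 fRIPs, in 47 pairs (19.7% beside 12.8 over all 406 pairs tested, which include antisense RNAs too low to be called depleted). In 40 of the 73 the antisense RNA was enriched and the sense gene depleted, and in 33 the reverse.

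Across the 239 antisense lncRNAs with a readable main transcript, GC content went with the log2 ratio to input in several fRIPs, given as Spearman's rank coefficient averaged over a protein's libraries and as a description, since these RNAs share libraries and inputs. The coefficient was 0.43 in CBP, 0.41 in CTCF and 0.36 in EZH2, and −0.40 in HUR and −0.44 in RBBP5. Among these 239, the RNAs enriched in RBBP5 had a median GC content of 37.8%, against 49.0% for the others, and those enriched in EZH2 52.2% against 47.0%. For GGG per kilobase the coefficient was highest in CTCF (0.33), CBP (0.33) and EZH2 (0.29), lowest in RBBP5 (−0.315), and 0.19 in HNRNPH1. Among the 239, those enriched in HNRNPH1 had a median of 19.1 GGG per kilobase and the others 15.2.

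The 77 RNAs whose main transcript held a 25-base word found in at least 100 genes were enriched in ADAR in 39 cases (50.6%, median log2 fold change 1.02), and the 162 without such a word in 50 (30.9%, median 0.34). The corresponding shares were 32.5% and 39.5% in HNRNPH1, 16.9% and 25.3% in HNRNPU and 28.6% and 18.5% in EZH2. Reads of such words can also be placed at other genes that hold them, and the part of this in the ADAR values was not tested. Of all word positions in the main transcript such words took 0.8% in GAS5-AS1, 2.7% in SPAG5-AS1 and 5.2% in NCBP2-AS1.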

How the data were processed

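Total input and fRIP RNA of K562 cells was sequenced after ribosomal RNA removal, in biological replicates from separate lysates. Per the labels and the study's methods the authors used CASAVA 1.4, mapped reads to hg19 with TopHat and quantified GENCODE genes with Cuffdiff 2 and Cuffnorm. They deposited FPKM per gene, per isoform and per library, and a table of their own fold changes, p-values and q-values, which was not used except that its input means showed which of the 3 input sets each fRIP had been compared with. The use of strand in counting is not given in the sources used here. No column was left unmapped.

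All other values were computed here from the deposited FPKM. The 25442 genes that reached 1 FPKM in 2 or more libraries entered a limma 3.58.1 fit (R 4.3.3) with an intensity trend on log2(FPKM + 1), with a mean per protein and 1 mean of the 9 inputs. Single values were also given a two-sided exact permutation test over libraries. On simulated data 99.5% (HNRNPH1) and 99.0% (EZH2) of 200 genes changed by a log2 of 2 were recovered among 25442 genes. In each, 4 others were called. Recovery was not split by direction or input level, and that of depleted low genes alone was not tested. Depth was inferred from FPKM steps of genes with 1 isoform (tolerance 0.15). Tables were made with Python 3.11.15, numpy 2.4.6 and pandas 2.3.3.

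Exons, positions and sequences came from the GENCODE v44 annotation lifted to GRCh37, in which 46055 of the 48453 genes were found, and the main transcript was that with the highest input FPKM. The replicate numbers pair samples only where every same-number pair deviated together by a correlation over 0.1, which held for CHD1, NUP98, PCAF and WDR5 with their input set, from the data and not the labels. The labels number the STAG2 libraries 1 and 3 and the deposited columns 1 and 2, so the second was given no number and is left out of fits with a replicate block. Alternatives were centring, a pseudocount of 0.1 FPKM, no filter, the matched input set, a replicate block and leaving out each library. A replicate block within each input set was added after the data were seen. The antisense lncRNAs, gene lists and tests were chosen with earlier results of these data known. Named genes were the leading non-overlapping RNA per fRIP and direction, the 10 highest in input, a list of studied antisense lncRNAs, those nearest 1 FPKM, the 10 largest pair differences, the 5 widest and narrowest ranges, and their sense genes. TPT1, GAS5 and other sense genes follow from these. Some genes and sequences are not reported here.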

Additional observations from a re-analysis of the deposited data

Results flagged for a closer look

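In 9 of the 62 named antisense lncRNAs 1 input library stood apart from the other 8, by a gap to the nearest library of more than 0.493 of the whole range (chance marks about 1 group in 20). Replicate 3 of the second input set was the lowest for PSMD5-AS1 (81.54 FPKM, next 136.8 FPKM), SETD5-AS1 (37.94 FPKM, next 69.46 FPKM) and DLGAP1-AS2 (14.41 FPKM, next 48.81 FPKM), and the highest for VPS9D1-AS1 (11.52 FPKM, next 6.846 FPKM). Replicate 1 of the first input set was the highest for MYB-AS1 (30.78 FPKM, next 19.9 FPKM), TLR8-AS1 (34.25 FPKM, next 17.66 FPKM), GLYCTK-AS1 (49.43 FPKM, next 4.147 FPKM) and BAIAP2-AS1 (5.688 FPKM, next 3.854 FPKM). Replicate 2 of the first input set was the highest for SLC25A5-AS1 (2.154 FPKM, next 1.408 FPKM).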

How the results depend on the processing

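Of the log2 fold changes of named RNAs 552 of 2832 were called. With each library centred 423 of the 552 kept their call, with the matched input set 438, with the replicate block within input sets (chosen after seeing the data) 441, with a pseudocount of 0.1 FPKM 537, without a filter 549 and with a replicate block 546. None of these called values changed sign under these alternatives. Centring turned the balance of enriched against depleted counts in ADAR, CHD4, HNRNPU, HUR, IMP1, NUP98, PABP and WDR5, and the matched input set turned it in CHD1. The called pair differences summed over all fRIPs, 650 above and 710 below, moved by less than 1.5 times under every alternative, but single fRIPs moved by more. The matched input set, and likewise the replicate block within it, lowered by over 1.5 times the pairs above from 60 to 34 in HNRNPU, 32 to 11 in CBX3 and 40 to 20 in HDAC1 and those below from 16 to 8 in HNRNPU and 29 to 15 in NUP98, and a pseudocount of 0.1 FPKM brought those below from 39 to 66 in CHD4, 53 to 88 in PCAF and 29 to 55 in NUP98. Without its replicate 3 NUP98 had 14 pairs below. Apart from these and EZH2 without 1 library, given above, other such moves started from counts of at most 20. The counts per fRIP that moved by more than 1.5 times follow, and the cause was not tested. Depth limits the low values, and several depleted RNAs named above rest on 5 fragments or fewer per library.

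Centred on the library median, the enriched counts became 46 in ADAR, 14 in CBX3, 2 in CHD1, 45 in CHD4, 16 in HDAC1, 52 in HNRNPH1, 19 in HNRNPU, 10 in HUR, 28 in IMP1, 8 in LSD1, 8 in NUP98, 68 in PABP, 8 in PCAF, 15 in PHF8, 8 in RBBP5, 3 in STAG2 and 34 in WDR5, and the depleted counts 67 in ADAR, 21 in CHD4, 14 in HDAC1, 38 in HNRNPH1, 25 in HNRNPU, 14 in HUR, 14 in IMP1, 9 in LSD1, 6 in NUP98, 32 in PABP, 13 in PCAF, 3 in PHF8, 3 in RBBP5 and 13 in WDR5. With a pseudocount of 0.1 FPKM the enriched counts became 2 in CHD1, 4 in CHD7, 4 in CTCF, 37 in HUR, 2 in LSD1, 1 in PCAF, 2 in STAG2 and 7 in phospho-CBX3, and the depleted counts 16 in ADAR, 14 in CBP, 78 in CHD4, 7 in CTCF, 33 in DNMT1, 51 in EZH2, 9 in HDAC1, 18 in HNRNPH1, 5 in HNRNPU, 77 in IMP1, 65 in LSD1, 58 in NUP98, 92 in PCAF, 1 in PHF8, 6 in RBBP5, 29 in STAG2, 29 in SUZ12, 50 in WDR5 and 15 in phospho-CBX3. Against the matched input set the enriched counts became 10 in CBX3, 4 in CHD7, 0 in CTCF, 15 in HDAC1, 31 in HNRNPU, 37 in HUR, 2 in NUP98, 0 in STAG2 and 1 in phospho-CBX3, and the depleted counts 5 in ADAR, 0 in CHD1, 69 in CHD4, 7 in CTCF, 34 in DNMT1, 17 in EZH2, 6 in HNRNPH1, 47 in LSD1, 11 in NUP98, 32 in PCAF, 1 in PHF8, 19 in WDR5 and 13 in phospho-CBX3. With the matched input set and a replicate block within it, the enriched counts became 10 in CBX3, 5 in CHD7, 0 in CTCF, 16 in HDAC1, 31 in HNRNPU, 37 in HUR, 2 in NUP98 and 1 in phospho-CBX3, and the depleted counts 5 in ADAR, 0 in CHD1, 69 in CHD4, 8 in CTCF, 34 in DNMT1, 16 in EZH2, 6 in HNRNPH1, 48 in LSD1, 14 in NUP98, 34 in PCAF, 1 in PHF8, 25 in STAG2, 19 in WDR5 and 14 in phospho-CBX3. The replicate block over all libraries, which leaves out the second STAG2 library and so leaves 1 STAG2 library assumed to vary like the others, gave 3 enriched and 9 depleted in STAG2. It changed no other count by more than 1.5 times. Without 1 library at a time the enriched counts ran from 1 to 3 in CHD1, 2 to 5 in CHD7, 1 to 3 in CTCF, 0 to 2 in LSD1, 0 to 1 in PCAF, 0 to 3 in STAG2 and 3 to 7 in phospho-CBX3, and the depleted counts from 2 to 4 in CHD1, 3 to 6 in CTCF, 2 to 4 in HNRNPU, 15 to 31 in NUP98, 0 to 1 in PHF8, 0 to 3 in RBBP5, 7 to 20 in STAG2 and 4 to 10 in phospho-CBX3. Over all fRIPs the pairs ran from 612 to 678 above and from 694 to 746 below.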
